A study of Homo sapiens with 6 samples.

Results

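The enzymes of the tricarboxylic acid (TCA) cycle were followed in SW480 cells, a line of human colorectal cancer cells, after knockdown of the transcription factor ZEB1. The set was defined by gene name, with earlier results of these data already known. The rows named CS, IDH2, IDH3A, OGDH, DLST, SUCLG1, SUCLA2, FH and MDH2 were taken from the tables of read counts, 9 of the 32029 genes listed there. All 9 passed the filter on low counts. The study asked how ZEB1 acts in colorectal cancer cells, and its cultures differed in the siRNA only. One group of 3 cultures, labelled with the genotype WT, was treated with the control siRNA siNC. The other group of 3, labelled ZEB1 knockdown, received siZEB1, and all 6 were collected 48 h after transfection. Both groups share the same cell line and the same time point, so a single line with a single knockdown stands for the condition. The sequence of each siRNA and whether siZEB1 was 1 duplex or several are not given in the sources used here.

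The TCA cycle is run by enzymes of the mitochondrial matrix and inner membrane that oxidise acetyl-CoA to carbon dioxide and pass the electrons to NADH and to the respiratory chain. Citrate synthase starts it by joining acetyl-CoA to oxaloacetate. In rapidly growing tumour cells the cycle also supplies carbon skeletons, with citrate leaving for lipid synthesis and glutamine entering as 2-oxoglutarate. ZEB1 is a zinc-finger repressor that binds E-box sequences in DNA and is best known for silencing epithelial genes.

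The libraries held between 19040636 and 22357633 counts. ZEB1 itself fell from 54.2 ± 6.24 CPM (read counts scaled to the TMM-normalized library size) in siNC to 7.51 ± 0.843 in siZEB1 (mean ± SD, n = 3 cultures a group), or -2.85 (SE 0.108, adjusted p = 4.85e-12) as a log2 fold change. This and the adjusted p-values below are from edgeR's quasi-likelihood test with Benjamini-Hochberg adjustment over the 14996 genes tested. A gene was called higher or lower where that value was under 0.05, and 40.2% of all genes tested were called (19.0% higher and 21.2% lower in siZEB1). Of the colorectal epithelial markers, 7 of 8 were tested and their summed level lay between 4782 and 5402 CPM in siNC and between 5158 and 5799 CPM in siZEB1, while CEACAM5 was at or near 0 counts in all cultures. Within that list EPCAM and VIL1 were called higher, and CDX2 was called lower. The summed levels were 13.4 to 14.9 against 13.3 to 15.3 CPM for 5 fibroblast markers, 0.282 to 0.415 against 0.209 to 0.468 CPM for 3 leukocyte markers and 2.02 to 2.72 against 1.54 to 2.60 CPM for 2 endothelial markers, and DCN, PTPRC and CDH5 were not listed. Within the fibroblast list PDGFRB was called higher, from 3.98 ± 0.3095 to 5.33 ± 0.222 CPM (log2 fold change 0.42, adjusted p = 0.0281), and its part in the results below was not tested. In bulk RNA, fewer cells of a kind and less RNA per cell cannot be told apart.

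The cycle as a whole did not move in a single direction. SUCLA2 and CS were higher after ZEB1 knockdown, DLST and IDH2 were lower, and the other 5 enzymes were not called. That makes 4 of 9 called, close to the 40.2% of all genes, with 2 of 9 in each direction. No enzyme changed by more than 1.5-fold with an unadjusted p under 0.05, a rule that 16.6% of all genes met. The median log2 fold change of the 9 was 0.05, against -0.0055 over all genes tested. Their median absolute change was 0.18 on the log2 scale, against 0.21 for the 10237 genes with a mean of at least 5 CPM. Summed over the 9, the level lay between 1483 and 1551 CPM in siNC and between 1503 and 1575 CPM in siZEB1, so the summed levels overlapped. In 7 of the 9 the siNC and siZEB1 cultures did not overlap (siZEB1 above in 4 and below in 3), which was so for 49.5% of all genes.

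**Figure D1:**
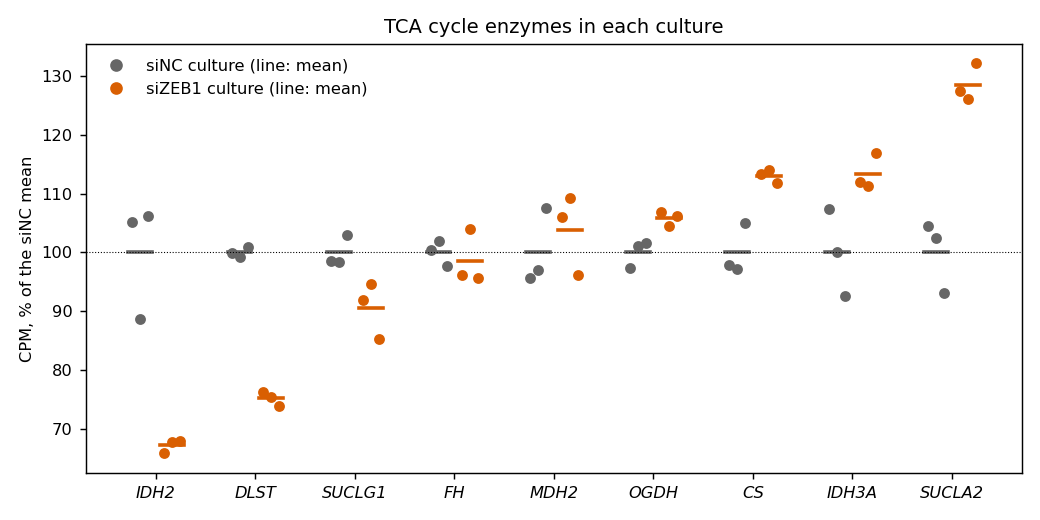
Level of each TCA cycle enzyme in each culture, as a percentage of that enzyme's mean CPM over the 3 siNC cultures. Points are cultures, short lines are group means and enzymes run from the lowest to the highest log2 fold change. The siZEB1 cultures of IDH2 and DLST lie well below every siNC culture, those of SUCLA2, IDH3A, CS and OGDH lie above, and those of FH and MDH2 overlap with siNC.

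The sequences below are shown because the enzymes called lower, and 1 that was not, share a short element in the 3′UTR, and because ZEB1 binds E-boxes. The 7 letters GAACACA had been picked out in an earlier look at the fold changes of these same libraries, so what follows is a description with no weight of its own. A match was found in the 3′UTR of the principal transcript of 3 of the 9 enzymes. The match is in capitals, with 8 bases on each side, read 5′ to 3′ on the transcript from GENCODE 29 on hg38.
DLST: gagggattGAACACAggcaaaga
IDH2: tgcccttgGAACACAtggtgcca
IDH3A: aaaggcccGAACACAtgtatttt
Over all 12321 tested genes with a 3′UTR, 11.2% held it, with a median log2 fold change of -0.23 against 0.01 for the genes without it. DLST and IDH2, which hold it, were lower, and IDH3A, which holds it too, had higher values in siZEB1. None of CS, OGDH, SUCLG1, SUCLA2, FH and MDH2 has these letters in the 3′UTR examined. Among the other genes around the cycle that were looked at, it stood in SDHC, MPC2, PDP2, PDPR and ACO1.

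For 8 of the 9 enzymes the 250 bases before the RefSeq start (GRCh38.p14) were searched, and OGDH was not in that table. The letters CAGGTG or CACCTG, the E-box bound by ZEB1, read on both strands, stood in 2 of the 8 windows and in 17.5% of all 35116 windows of this length. The 2 were FH and SUCLG1, neither of them called. Each E-box is in capitals with 10 bases on each side, taken from chr1:241519756-241520005 and chr2:84459281-84459530, both on the minus strand.
FH: ggtcctgcccCACCTGtcggtgtgag
SUCLG1: tctttgtcttCACCTGccattcccgc
For the enzymes with the clearest change in each direction, whole windows are given, SUCLA2 at chr13:48001274-48001523 on the minus strand and DLST at chr14:74881666-74881915 on the plus strand. Capitals mark AAGGTCA, the half-site of oestrogen-related receptors, which drive many mitochondrial genes. It stood on either strand in 3.44% of all windows and, among the 8, in SUCLA2 only.
SUCLA2: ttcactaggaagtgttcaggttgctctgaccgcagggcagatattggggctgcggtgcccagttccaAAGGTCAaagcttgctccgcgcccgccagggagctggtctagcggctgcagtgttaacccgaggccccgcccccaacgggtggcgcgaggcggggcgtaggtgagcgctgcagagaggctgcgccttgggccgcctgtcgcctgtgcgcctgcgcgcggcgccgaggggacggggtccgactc
DLST: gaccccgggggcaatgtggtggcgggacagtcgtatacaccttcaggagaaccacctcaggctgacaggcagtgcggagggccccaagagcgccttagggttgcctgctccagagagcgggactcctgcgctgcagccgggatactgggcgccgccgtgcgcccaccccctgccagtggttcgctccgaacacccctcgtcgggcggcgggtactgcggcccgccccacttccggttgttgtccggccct
The NRF1 core CGCATGCG stood in 1.73% of all windows and in 0 of the 8. The RefSeq start lies 1883 bases inside the GENCODE 29 gene for IDH2 and 765 bases inside it for SUCLG1, so those windows lie inside the annotated gene. The windows of SUCLA2 and IDH3A also lie inside their long annotated genes, 36695 and 17864 bases from the 5′ end, but 9 and 6 GENCODE transcripts hold the first 30 bases after those starts. A match in letters was not read as a bound site.

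Citrate synthase, the enzyme that condenses acetyl-CoA with oxaloacetate, was higher after knockdown. CS (ENSG00000062485, chr12:56271699-56300392, minus strand, protein coding) stood at 294, 292 and 316 CPM in the siNC cultures and at 340.5, 342.5 and 336 CPM in the siZEB1 cultures. All siZEB1 cultures lay above all siNC cultures, and the siZEB1 cultures were closer together. The mean rose from 300.5 ± 13.2 to 339.6 ± 3.44 CPM (log2 fold change 0.18, SE 0.0545, 95% confidence interval 0.06 to 0.29, adjusted p = 0.0157). That call was lost when siNC replicate 1, siNC replicate 2, siZEB1 replicate 1 or siZEB1 replicate 2 was left out, with adjusted p of 0.0543, 0.0885, 0.0647 and 0.0599. It held in 7 of the 12 alternatives run on single genes, over which the adjusted p ran from 0.00363 to 0.0904 and the log2 fold change from 0.15 to 0.21.

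The isocitrate dehydrogenase step splits between an NADP-dependent enzyme, IDH2, and an NAD-dependent enzyme built from IDH3A, IDH3B and IDH3G. IDH2 and IDH3G were lower after knockdown, and IDH3A and IDH3B were not called. IDH2 (ENSG00000182054, chr15:90083045-90102504, minus strand) was held at low counts, 189, 168 and 173 in siNC and 105, 110 and 110 in siZEB1. In CPM these were 8.89, 7.50 and 8.97 in siNC and 5.56, 5.72 and 5.75 in siZEB1. The siZEB1 cultures were all lower than the lowest siNC culture. The mean fell by 32.9%, from 8.46 ± 0.826 to 5.68 ± 0.1003 CPM, with a log2 fold change of -0.57 (SE 0.126, 95% confidence interval -0.84 to -0.31, adjusted p = 0.00151). IDH2 was called lower in all 12 alternatives, with adjusted p between 0.000396 and 0.00914.

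IDH3A, the catalytic subunit of the NAD-dependent enzyme (chr15:78131498-78171949, plus strand), stood at 49.4, 45.9 and 42.5 CPM in siNC and at 51.4, 51.1 and 53.7 CPM in siZEB1. The siZEB1 cultures were all above siNC, by a narrow margin over siNC replicate 1. The log2 fold change of 0.18 (SE 0.0736, 95% confidence interval 0.02 to 0.34) did not pass the threshold (adjusted p = 0.0614). It passed when siNC replicate 1 was left out (0.23, adjusted p = 0.0277), and over all 12 alternatives the adjusted p ran from 0.0277 to 0.194. Exons of ACSBG1 and CIB2 on the opposite strand cover 38.9% of its exonic bases, and whether the counting used the strand is not given in the sources used here, so this count is uncertain. Of its partners, the regulatory subunit IDH3G was lower, from 41.0 ± 5.46 to 31.6 ± 0.368 CPM (log2 fold change -0.38, SE 0.0892, adjusted p = 0.00277). Opposite-strand exons cover 10.2% of the exonic bases of IDH3G. The other partner, IDH3B, stood at -0.09 (SE 0.0585, adjusted p = 0.241) on the log2 scale, with overlapping groups.

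The 2-oxoglutarate dehydrogenase complex oxidises 2-oxoglutarate to succinyl-CoA through the E1 subunit OGDH, the E2 subunit DLST and the shared E3 subunit DLD. The E2 gene alone was called. DLST (ENSG00000119689, chr14:74881891-74903745, plus strand) had 4663, 4877 and 4274 counts in siNC and 3159, 3186 and 3100 in siZEB1. These were 219, 218 and 222 CPM against 167, 166 and 162 CPM. Cultures of a group were nearly equal, and the gap between the groups was many times wider than the spread within either. The mean fell by 24.9%, from 219.6 ± 1.98 to 165.0 ± 2.75 CPM (log2 fold change -0.41, SE 0.0553, 95% confidence interval -0.53 to -0.30, adjusted p = 1.5e-05), the lowest adjusted p of the 9 enzymes. It was called lower in all 12 alternatives, and the pseudogene DLSTP1 held only 4 to 12 counts per culture.

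OGDH (chr7:44606572-44709066, plus strand), which catalyses the decarboxylation itself, was at 213, 221 and 222 CPM in siNC and at 233, 228 and 232 CPM in siZEB1. The siZEB1 cultures were all slightly above siNC, but the difference of 0.08 on the log2 scale (SE 0.0546, 95% confidence interval -0.03 to 0.20) did not pass the threshold (adjusted p = 0.256). DLD, the dihydrolipoamide dehydrogenase used by several complexes, differed by 0.10 (SE 0.0652, adjusted p = 0.218) on that scale, with overlapping groups. The OGDH-like gene OGDHL, a paralogue at a far lower level, was lower, from 12.8 ± 0.896 to 8.42 ± 0.6896 CPM (log2 fold change -0.60, SE 0.11, adjusted p = 0.000322). The paralogue DHTKD1, which acts in lysine breakdown, differed by 0.03 (SE 0.0896, adjusted p = 0.828) on the log2 scale.

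**Figure D2:**
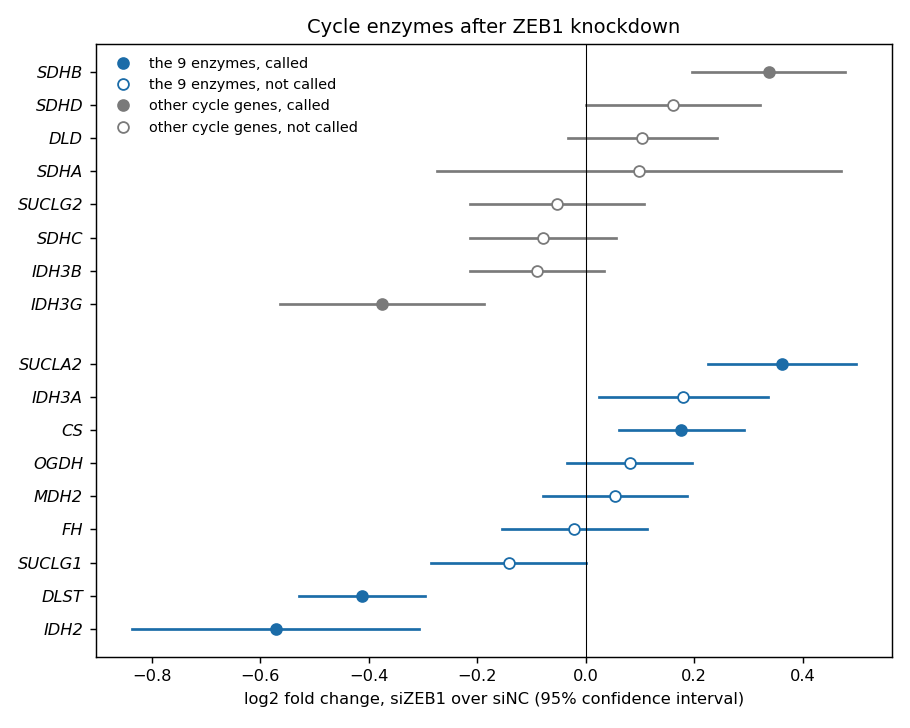
Log2 fold change of siZEB1 over siNC for the 9 enzymes (blue) and 8 other genes of the cycle (grey), with 95% confidence intervals from the edgeR fit of 3 cultures against 3. Filled points were called at an adjusted p under 0.05. DLST and IDH2 (-0.41 and -0.57) lie to the left of 0, as does IDH3G among the other genes, and SUCLA2, CS and SDHB lie to the right.

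Succinyl-CoA synthetase joins the common alpha subunit SUCLG1 to either the ATP-forming beta subunit SUCLA2 or the GTP-forming beta subunit SUCLG2. SUCLA2 had the largest rise of the 9 enzymes, while neither partner was called. SUCLA2 (ENSG00000136143, chr13:47745736-48037968, minus strand) had 2219, 2293 and 1792 counts in siNC and 2404, 2422 and 2526 in siZEB1, or 104, 102 and 93.0 CPM against 127, 126 and 132 CPM. Its siZEB1 cultures all lay above the highest siNC culture. The mean rose from 99.9 ± 6.09 to 128.4 ± 3.15 CPM, by 28.6% (log2 fold change 0.36, SE 0.0649, 95% confidence interval 0.22 to 0.50, adjusted p = 0.000262), and it was called higher in all 12 alternatives.

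SUCLG1 (chr2:84423523-84460045, minus strand) went the other way in level, with 70.1, 70.0 and 73.3 CPM in siNC and 65.4, 67.3 and 60.7 CPM in siZEB1. Its siZEB1 cultures were all below siNC. The log2 fold change of -0.14 (SE 0.0674, 95% confidence interval -0.28 to 0.00035) did not pass the threshold (adjusted p = 0.105). SUCLG2 differed by -0.05 on the log2 scale (SE 0.076, adjusted p = 0.614), with overlapping groups at 28.7 ± 0.816 and 27.7 ± 0.632 CPM.

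The steps from succinate to oxaloacetate close the cycle. Of the succinate dehydrogenase subunits, the iron-sulfur subunit SDHB was higher, from 77.0 ± 3.49 to 97.3 ± 4.69 CPM (log2 fold change 0.34, SE 0.0667, adjusted p = 0.000632). The membrane anchors SDHC and SDHD were not called, at -0.08 (SE 0.0638, adjusted p = 0.351) and 0.16 (SE 0.0763, adjusted p = 0.105) on the log2 scale, and 11.2% of the exonic bases of SDHD are shared with another gene on its strand. SDHA, the flavoprotein subunit, was counted at only 3.50 ± 0.529 and 3.75 ± 0.535 CPM, below its pseudogene SDHAP1 in every culture (63 counts against 533 in siNC replicate 1). Reads from such near-identical copies may be split or dropped in counting, so SDHA is uncertain and its log2 difference of 0.10 (SE 0.176, adjusted p = 0.693) is given with that limit.

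FH, the fumarase that hydrates fumarate to malate (chr1:241497603-241519761, minus strand), was at 101, 102 and 98.0 CPM in siNC and at 96.4, 104 and 95.9 CPM in siZEB1. The groups overlapped, with the highest and the lowest culture both in siZEB1, and the log2 fold change was -0.02 (SE 0.0636, 95% confidence interval -0.16 to 0.11, adjusted p = 0.824). It was 0.0025 without siZEB1 replicate 3. MDH2, the mitochondrial malate dehydrogenase that regenerates oxaloacetate (chr7:76048051-76067508, plus strand), was at 423, 430 and 476 CPM in siNC and at 470, 484 and 426 CPM in siZEB1. One siNC culture reached the level of the upper siZEB1 cultures and 1 siZEB1 culture fell among the lower siNC cultures, so siNC and siZEB1 overlapped. The log2 fold change of MDH2 was 0.05 (SE 0.0625, 95% confidence interval -0.08 to 0.19, adjusted p = 0.523), and it ran from 0.02 without siZEB1 replicate 2 to 0.11 without siZEB1 replicate 3. Of the 9 other cycle genes, 2 were higher and 1 was lower, with a median log2 fold change of 0.10. The shares over all genes tested were 19.0% higher and 21.2% lower.

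The enzymes differed far more from each other than between the groups. Levels between genes were compared per length, as CPM per kilobase of the union of annotated exons. In siNC, MDH2 came first at 121.7 ± 7.92, then DLST at 48.3 ± 0.436, CS at 46.9 ± 2.06, FH at 46.8 ± 0.999, OGDH at 42.0 ± 0.959, SUCLG1 at 16.6 ± 0.435 and SUCLA2 at 11.2 ± 0.683 CPM per kilobase. IDH3A followed at 6.73 ± 0.501 and IDH2 came last at 3.01 ± 0.294 CPM per kilobase. The siNC cultures of DLST overlapped with those of CS, and those of CS with those of FH, while the other neighbours in this order did not overlap. In siZEB1, DLST stood at 36.3 ± 0.604, below CS at 53.1 ± 0.538, FH at 46.2 ± 2.21 and OGDH at 44.4 ± 0.522 and above SUCLG1 at 15.04 ± 0.798 and SUCLA2 at 14.4 ± 0.353 CPM per kilobase.

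The length used moved these levels. Per kilobase of the principal transcript, a length chosen after the data were seen, CS (101 ± 4.43) came before DLST (77.4 ± 0.698) in siNC, and the places of the other 7 enzymes were the same. By that length SUCLG1 (48.2 ± 1.26) and SUCLA2 (45.6 ± 2.78) overlapped in siNC, and DLST in siZEB1 (58.1 ± 0.968) lay next to SUCLA2 (58.6 ± 1.44), so neither relation holds under both lengths. In siZEB1 the mean of DLST by that length was also above those of OGDH (55.29 ± 0.65) and FH (55.02 ± 2.63). The place of DLST below OGDH and FH thus depends on the length used, while DLST stayed below CS (114.2 ± 1.16).

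**Figure D3:**
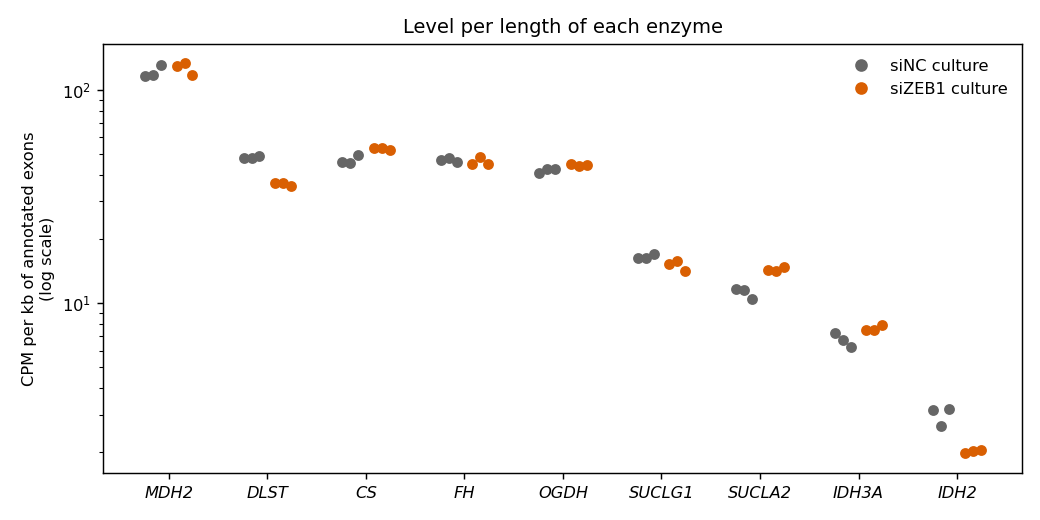
Level of each enzyme in each culture as CPM per kilobase of the union of its annotated exons, on a log scale, with enzymes in the order of their siNC mean. MDH2 lies near 121.7 and IDH2 near 3.01 in siNC. By this length the siZEB1 points of DLST drop below those of CS, FH and OGDH, which for FH and OGDH does not hold by principal transcript length.

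Ratios taken within a library do not depend on its scaling, and 8 ratios of partner subunits or isoenzymes were compared by an exact permutation test, two-sided, adjusted over the 8. With 3 cultures against 3 its smallest p is 0.1, so none could pass 0.05. In 7 of the 8 ratios the groups did not overlap (exact permutation p = 0.1, adjusted p = 0.114). The share among gene pairs in general was not worked out, and of single genes 49.5% did not overlap. IDH3A, IDH2 and SUCLA2 each recur among the pairs, so the 8 ratios are not independent of each other or of the single-gene results above. DLST and OGDH had nearly equal counts in siNC, with log2 ratios of 0.04, -0.02 and -0.0014, and -0.48, -0.46 and -0.52 in siZEB1. The E2 to E1 count ratio thus fell from 1.01 to 0.714 (difference of mean log2 ratios -0.49), with every siZEB1 culture lower. For succinyl-CoA synthetase, SUCLA2 over SUCLG1 had log2 ratios of 0.57, 0.55 and 0.34 in siNC and 0.96, 0.90 and 1.12 in siZEB1, a shift of 0.51 upwards. The GTP-forming over the ATP-forming beta subunit, SUCLG2 over SUCLA2, shifted by -0.42.

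Within the NAD-dependent isocitrate dehydrogenase, IDH3G over IDH3A shifted by -0.55 and IDH3B over IDH3A by -0.27 on the log2 scale. The same limit from opposite-strand neighbours holds for IDH3A and, over a smaller share of bases, for IDH3G. IDH2 over IDH3A shifted by -0.75, the largest of the 8 shifts in size. IDH2 against its cytosolic counterpart IDH1 shifted by -0.47. MDH2 over its cytosolic counterpart MDH1 was the exception, with overlapping groups and a shift of 0.06 (exact permutation p = 0.4, adjusted p = 0.4).

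**Figure D4:**
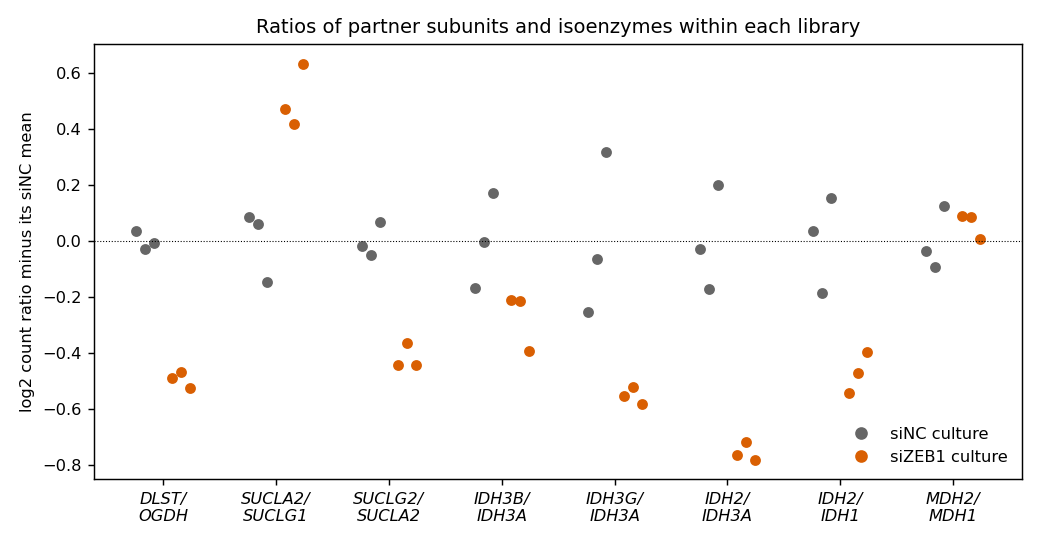
Log2 ratio of the counts of 2 genes within each culture, minus the mean of that ratio over the siNC cultures. Each point is a culture, and values below 0 mean that the first gene of the pair lost ground to the second. The siZEB1 cultures lie apart from siNC in every pair except MDH2 over MDH1, upwards for SUCLA2 over SUCLG1 (0.51) and downwards for the other 6.

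The genes that feed the cycle with pyruvate were mixed, with 2 higher and 4 lower of 14 tested and a median log2 fold change of -0.10. That is close to the 40.2% called over all genes tested (19.0% higher and 21.2% lower). Lower were PDPR, the regulatory subunit of pyruvate dehydrogenase phosphatase (-0.82, SE 0.0932, adjusted p = 2.48e-06), the pyruvate dehydrogenase kinase PDK2 (-0.66, SE 0.113, adjusted p = 0.000174), the phosphatase PDP2 (-0.40, SE 0.0742, adjusted p = 0.000355) and PDHX, which anchors E3 in the pyruvate dehydrogenase complex (-0.33, SE 0.0706, adjusted p = 0.00123). Higher were MPC1, a subunit of the mitochondrial pyruvate carrier (0.31, SE 0.0892, adjusted p = 0.0113), and PDHB, an E1 subunit named here after its value was seen (0.19, SE 0.0691, adjusted p = 0.0404). Both the kinase side and the phosphatase side of pyruvate dehydrogenase control thus held genes called lower, beside others that were not called. The phosphatase PDP1, at 414 ± 44.4 CPM in siNC against 56.7 ± 2.97 for PDP2, was not called (-0.13, SE 0.0744, adjusted p = 0.167). Neither were the kinases PDK3 (-0.09, SE 0.0906, adjusted p = 0.463) and PDK4 (-0.10, SE 0.279, adjusted p = 0.808). PDK1 stood at -0.12 (SE 0.0956, adjusted p = 0.339) and PC, pyruvate carboxylase, at -0.04 (SE 0.107, adjusted p = 0.793). Exons on the opposite strand cover 38.6% of the exonic bases of PDK2 and 19.6% of those of PDPR.

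Among genes of glutamine use and anaplerosis, 3 were higher and 3 lower of 10 tested, with a median of -0.07. Over all genes tested the shares were 19.0% higher and 21.2% lower. Of the 3 malic enzymes, 1 was lower and 1 was higher, and ME3, a mitochondrial NADP-dependent form at 2.15 ± 0.578 CPM in siNC, was not called (-0.30, SE 0.251, adjusted p = 0.359). The mitochondrial NAD-dependent ME2 fell from 42.6 ± 2.48 to 21.1 ± 2.25 CPM (log2 fold change -1.01, SE 0.0878, adjusted p = 1.06e-07), and the cytosolic NADP-dependent ME1 rose from 105 ± 5.22 to 167 ± 1.73 CPM (0.67, SE 0.0612, adjusted p = 1.93e-07). The aspartate aminotransferases were also opposed, the mitochondrial GOT2 lower (-0.24, SE 0.0549, adjusted p = 0.00182) and the cytosolic GOT1 higher (0.39, SE 0.0659, adjusted p = 0.000145). PCK2, the mitochondrial phosphoenolpyruvate carboxykinase, was higher (0.48, SE 0.0884, adjusted p = 0.000308). GLUD1, the glutamate dehydrogenase, was lower by a small margin (-0.15, SE 0.0546, adjusted p = 0.037) and may share reads with its near-identical copy GLUD2. Exons on the opposite strand cover 19.3% of the exonic bases of GOT1 and 13.2% of those of GLUD1.

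Of 9 cytosolic counterparts and mitochondrial carriers, 1 was higher and 5 were lower, with a median of -0.24. Of all genes tested, 19.0% were higher and 21.2% lower. The largest change in any of these lists was that of ACO1, the cytosolic aconitase that doubles as iron regulatory protein, which fell from 58.7 ± 1.62 to 12.8 ± 1.33 CPM (log2 fold change -2.19, SE 0.0861, adjusted p = 6.2e-12). The carriers SLC25A10 for dicarboxylates (-0.64, SE 0.214, adjusted p = 0.024, from 34 to 70 counts per culture), SLC25A11 for 2-oxoglutarate and malate (-0.47, SE 0.0906, adjusted p = 0.000555) and SLC25A1 for citrate (-0.28, SE 0.103, adjusted p = 0.0407) were lower, the last with overlapping groups in CPM. Another gene on the same strand shares 46.6% of the exonic bases of SLC25A10, so its count is uncertain. ACLY, which splits exported citrate for lipid synthesis, was lower (-0.24, SE 0.0599, adjusted p = 0.00376). The aspartate-glutamate carrier SLC25A13 was higher (0.38, SE 0.0569, adjusted p = 4.26e-05). IDH1 (-0.10, SE 0.0629, adjusted p = 0.223) and MDH1 (-0.01, SE 0.0602, adjusted p = 0.933) were not called.

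**Figure D5:**
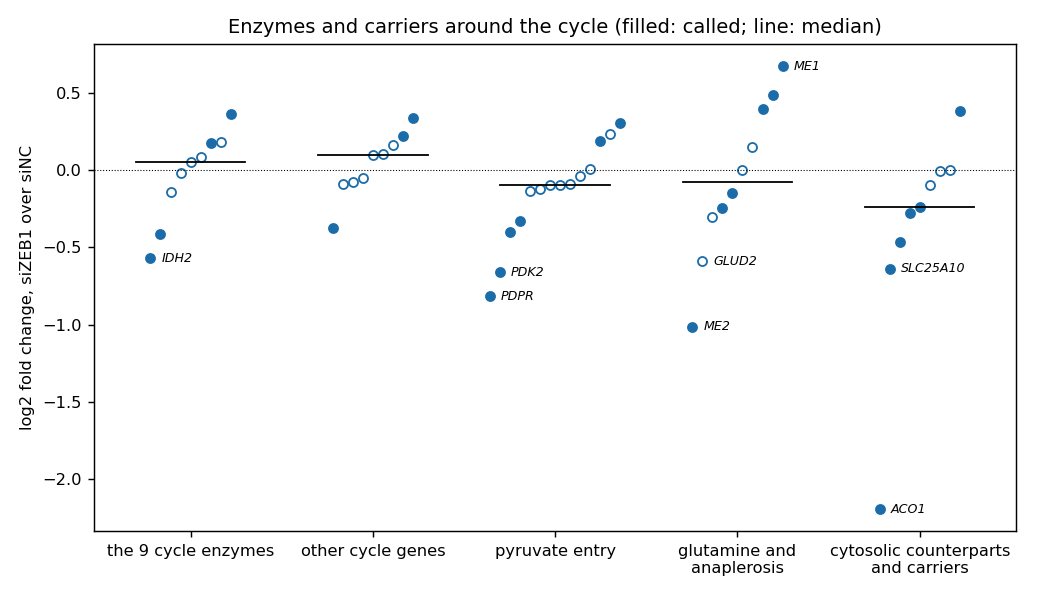
Log2 fold change of siZEB1 over siNC for each tested gene of 5 lists, with the 9 cycle enzymes at the left. Filled points were called at an adjusted p under 0.05, black lines are list medians (0.05 for the 9 enzymes and -0.24 for cytosolic counterparts and carriers), and the genes farthest from 0 are named. ACO1 at -2.19 stands apart from all other points.

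Over the 6 cultures, the profiles closest to that of SUCLA2, the called enzyme with the highest fold change, were those of RAD21, FXR1 and SPDL1, with root mean square distances of 0.0123, 0.0174 and 0.0191 between centred log2 CPM, out of 14996 genes. For IDH2, the called enzyme with the lowest fold change, the closest were PPIL3, CYB5B and SH3PXD2B at 0.0385, 0.0419 and 0.0419. The log2 fold changes of these genes were 0.34, 0.37 and 0.36 beside the 0.36 of SUCLA2, and -0.60, -0.53 and -0.55 beside the -0.57 of IDH2.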

How the data were processed

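Total RNA of 6 SW480 cultures (3 siNC, 3 siZEB1) was sequenced, and the authors deposited whole-number read counts per gene, not normalized. The submitters' processing notes name Trimmomatic, HISAT2, SAMtools, featureCounts and hg38. Versions, annotation release and strand setting are not given in the sources used here. The replicates are stated to be biological. Chi-square over degrees of freedom between cultures within a group was 2.27 to 9.58, so none was a copy of another.

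Counts were fitted with edgeR 4.0.16 (R 4.3.3, limma 3.58.1): filterByExpr by group, TMM normalization and the quasi-likelihood F test, two-sided, without covariates, over 14996 genes (biological coefficient of variation 6.58%). Likeness used log2 CPM with a prior count of 2. GENCODE 29 on hg38 held 31059 of the 32029 genes. It gave coordinates and exon overlap for the listed genes and a 3′UTR for 12321 of the genes tested. RefSeq gave the promoter windows. Of 87 listed symbols 84 were found. DESeq2 1.42.0, other scalings, filters and thresholds, a replicate block and each replicate left out were tried. Ratios used scipy 1.17.1.

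The enzymes, lists and the 7 letters searched were chosen with earlier results of these data known. Named were all cycle genes, up to 5 called genes of each other list by size of change, and PDK1, PC, GLUD1, IDH1, MDH1, ACLY, OGDHL, DHTKD1, MYC and TFAM whatever their value. Some genes of these lists were counted with their list but are not reported by name. TFB2M, PDHB, PDP1, PDK3, PDK4, MPC2, ME3, PDGFRB, GLUD2 and pseudogenes were named after their values were seen.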

Additional observations from a re-analysis of the deposited data

How the results depend on the processing

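DLST, IDH2 and SUCLA2 were called, in the same direction, in each of the 12 alternatives. With a replicate block, 1 enzyme was higher in place of 2 (CS was not called, adjusted p = 0.0904), as were 1 other cycle gene and 1 pyruvate entry gene. The replicate numbers do not pair the cultures (correlation of deviations -0.462, -0.438 and -0.773 over 6017 genes). Between differently numbered cultures the correlation ran from -0.519 to 0.673, and a batch shared across the groups was not tested. Without a filter 1 other cycle gene and 1 pyruvate entry gene were higher. At an adjusted p under 0.01, 1 enzyme, 1 other cycle gene, 0 pyruvate entry genes and 1 biogenesis regulator were higher, and 3 cytosolic or carrier genes were lower, the number DESeq2 also gave. Beyond 1.5-fold, 0 enzymes were higher and 0 lower, as for other cycle genes. By that rule 0 pyruvate entry genes were higher and 2 lower, 1 glutamine gene was higher and 1 lower, 0 cytosolic or carrier genes were higher and 2 lower, 1 biogenesis regulator was higher and 2 lower, and 1081 of all genes were higher and 1402 lower.

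With each replicate left out in turn, 1 to 2 enzymes were higher (1 without siNC replicate 2, siZEB1 replicate 1 or siZEB1 replicate 2) and 2 to 2 lower. Ranges elsewhere were 1 to 3 other cycle genes higher, 0 to 2 pyruvate entry genes higher (0 without siNC replicate 2), 3 to 5 cytosolic or carrier genes lower (3 without siNC replicate 3 or siZEB1 replicate 3) and 1 to 3 biogenesis regulators higher (1 without siNC replicate 2). The log2 fold change of FH ran from -0.061 to 0.0025 and that of DHTKD1 from -0.022 to 0.071 (-0.015 without siNC replicate 3, -0.022 without siZEB1 replicate 3), so neither has a stable direction. Scaling moved the median of all genes by less than 0.1. At 105 to 189 counts, IDH2 has the widest interval of the 9 enzymes.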

Other observations

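Regulators of mitochondrial biogenesis are nuclear factors that switch on genes of mitochondrial function and of mitochondrial DNA expression. They were mixed as well, with 2 higher and 4 lower of 10 tested and a median log2 fold change of -0.11. Among all genes tested 19.0% were higher and 21.2% lower. Lower by edgeR's quasi-likelihood test were the coactivator PPARGC1B (-0.86, SE 0.0983, adjusted p = 2.6e-06), MYC, a driver of growth and glutamine use (519 ± 9.29 to 332 ± 10.9 CPM, n = 3 cultures a group, -0.64, SE 0.0525, adjusted p = 5.47e-08), the ribosomal RNA methyltransferase TFB1M (-0.48, SE 0.115, adjusted p = 0.00321) and POLRMT, the mitochondrial RNA polymerase (-0.29, SE 0.0717, adjusted p = 0.0038). Higher were GABPA, the DNA-binding subunit of nuclear respiratory factor 2 (0.60, SE 0.0737, adjusted p = 6.04e-06), and the transcription factor TFB2M (0.25, SE 0.0723, adjusted p = 0.0104). TFAM, which packages mitochondrial DNA, differed by 0.13 on the log2 scale (SE 0.066, adjusted p = 0.123), and PPARGC1A was below the filter on low counts.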
